A study of Drosophila melanogaster with 10 samples.

Results

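The Hox genes of the Antennapedia complex are labial (lab), proboscipedia (pb), Deformed (Dfd), Sex combs reduced (Scr) and Antennapedia (Antp). They were taken from the count table by gene name, and all 5 were found among its 16727 genes. Their RNA was measured by sequencing of polyA-selected RNA from the larval brain of Drosophila melanogaster, taken at the wandering third-instar stage, with 25 brains pooled into each library. The yw stock is given 200 wild-type histone gene repeats by the series' design text, and the 12xWT genotype, written 12xHWT there, 12. Such a repeat holds a copy of each replication-dependent histone gene. The 10 libraries comprised 2 each of yw females and yw males and 3 each of 12xWT females and 12xWT males, and no treatment is named. The labels used here do not spell out the alleles of 12xWT, and do not say whether the ventral nerve cord was part of the dissected brain. With 1 genotype for each repeat number, the effect of repeat number and that of any further genetic difference cannot be told apart.

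Hox genes encode homeodomain transcription factors that give segments along the head-to-tail axis their identity. In flies they lie in a pair of clusters, the Antennapedia complex for head and anterior thorax and the bithorax complex for posterior thorax and abdomen, and within each the gene order follows the order of the body regions. In the nervous system each is expressed in a limited stretch of neuromeres, the segmental units of the brain and nerve cord. Polycomb group proteins keep Hox genes silent outside those stretches and Trithorax group proteins keep them active within them. The series' title names Polycomb function at reduced histone gene copy number, and the comparison asks whether the anterior cluster differs between the genotypes.

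On the dm6 build all 5 genes lie on chromosome arm 3R, and no exon of any of them overlaps an exon of another gene. The gene lab (FBgn0002522) spans 6661427 to 6678590 on the minus strand, with 3.05 kb of exon. The gene pb (FBgn0051481) spans 6707800 to 6742063 on the minus strand, with 3.73 kb of exon. Dfd (FBgn0000439) spans 6791836 to 6802428 on the plus strand, with 2.74 kb of exon. Scr (FBgn0003339) spans 6823120 to 6849981 on the minus strand, with 4.58 kb of exon. Antp (FBgn0260642) spans 6896253 to 6999228 on the minus strand, with 7.51 kb of exon in a body of 103.0 kb, and the annotated noncoding gene CR43252 lies in one of its introns.

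Counts assigned to genes totalled 52.02 to 79.92 M per library, and levels are given per 1 M of these counts (CPM). With 0 counts a level of up to 0.0375 to 0.0577 CPM is allowed, for counting error only. The white gene w checked the genotype labels, with 0.0890 to 0.175 CPM in yw libraries and 223.8 to 299.0 CPM in 12xWT libraries. The neuron marker elav, at 1590 ± 57.2 CPM (SD, n = 4) in yw and 1540 ± 88.3 CPM (SD, n = 6) in 12xWT, checked the tissue, and neuroblast markers summed to 12385 to 16427 CPM over the 10 libraries. Most of that sum was the gene pros, at 11767 to 15779 CPM. Sex labels separated less cleanly in 12xWT than in yw. The dosage compensation RNA roX2 ranged from 0.0769 to 2.88 CPM among yw females and from 65.3 to 67.8 CPM among yw males, but from 7.34 to 15.1 CPM among 12xWT females and from 35.7 to 48.0 CPM among 12xWT males. Summed transcripts of 8 Y-linked genes did not overlap between the labelled sexes within a genotype, but were lower in yw males than in 12xWT females. They were 0 to 0.0356 CPM in yw females and 0.105 to 0.260 CPM in yw males. In 12xWT they were 4.39 to 17.9 CPM in females and 19.8 to 22.8 CPM in males. The part of this in the results within each sex and between the sexes was not tested. No label says that replicate libraries came from separate crosses or collections, so p-values measure the spread between these libraries.

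None of the 5 anterior Hox genes differed between 12xWT and yw past the test's threshold, in both sexes together or in either sex. From the lowest to the highest of the 10 libraries Antp varied 1.21-fold, pb 1.13-fold and Dfd 1.30-fold. Of the genes tested, 36.6% had a lower coefficient of variation than Antp, 23.6% than pb and 52.2% than Dfd. The level of lab was highest in the 3 libraries of 12xWT males, and the share of all genes like it was not counted. Scr was between 14.1 and 17.1 CPM in 9 libraries and at 44.6 CPM in the remaining one. The bithorax gene Ultrabithorax (Ubx), which specifies the posterior thorax, was 4.22-fold higher in 12xWT in the same libraries. In bulk RNA, more or fewer cells of a type and more or less RNA per cell cannot be told apart.

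**Figure D1:**
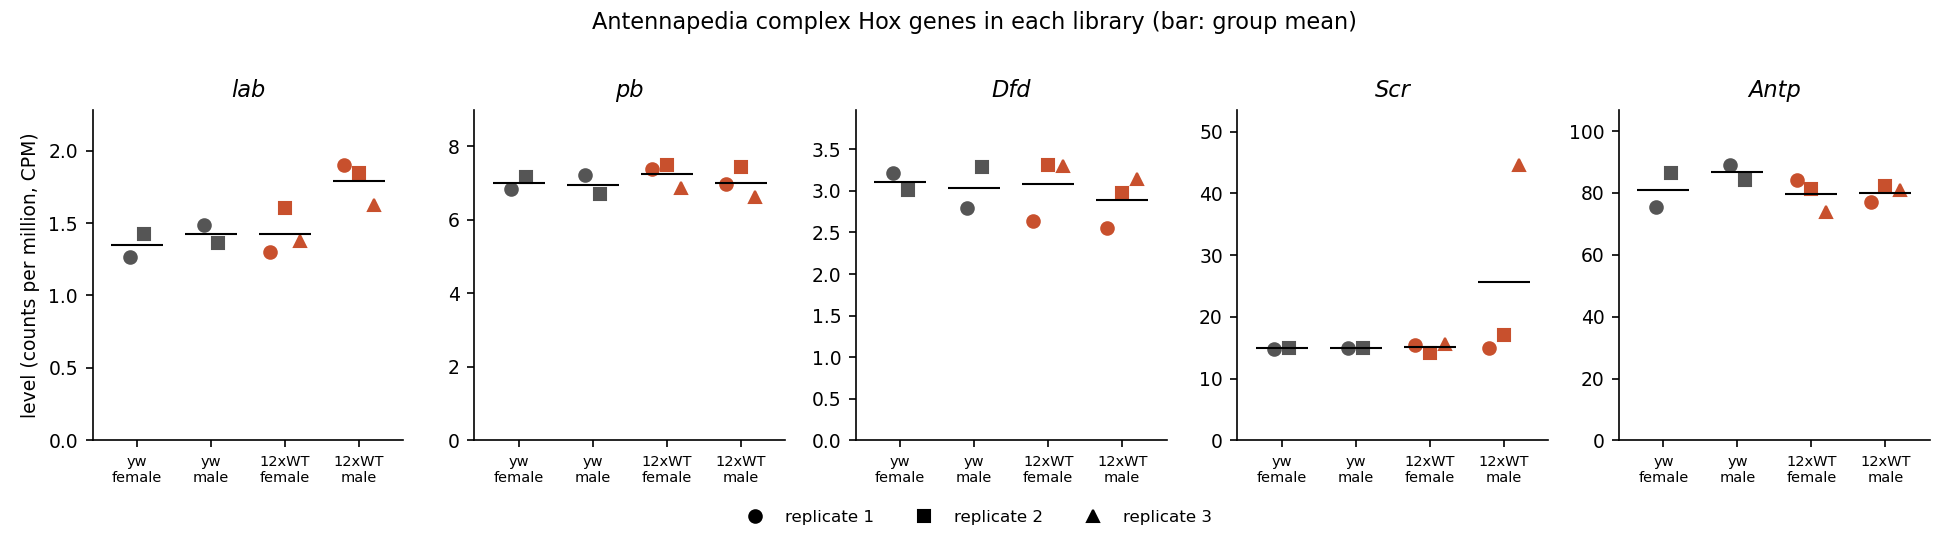
Level of each of the 5 genes in each library, in CPM on linear axes that start at 0, by genotype and sex; symbols mark replicate numbers and bars the group means. Scr stands at 44.6 CPM in 12xWT male replicate 3 and between 14.1 and 17.1 CPM in the other 9 libraries, while the 3 lab values of 12xWT males lie above the other 7.

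Levels can be compared between genes only per length of exon. Antp was the most abundant, with a mean of 10.9 CPM per kb and a range of 9.84 to 11.9 over the 10 libraries. Scr followed with a mean of 3.97 CPM per kb and a range of 3.09 to 9.75. The gene pb had 1.90 CPM per kb on average, between 1.78 and 2.01. Dfd had 1.10 CPM per kb, between 0.932 and 1.21, and lab 0.499 CPM per kb, between 0.417 and 0.624. The order Antp, Scr, pb, Dfd, lab was the same in each of the 10 libraries, and the ranges of neighbours in it did not overlap. Along the chromosome the order from lab is lab, pb, Dfd, Scr, Antp, so Dfd and pb are exchanged between the orders.

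The steps of that order differed in size and in steadiness. Within a library Antp exceeded Scr per length by 1.11- to 3.63-fold (median 3.22), the smallest ratio being in 12xWT male replicate 3. Scr exceeded pb by 1.53- to 5.48-fold (median 1.76), pb exceeded Dfd by 1.50- to 2.06-fold (median 1.71) and Dfd exceeded lab by 1.49- to 2.81-fold (median 2.28). Of the 11146 genes tested, 52.1% had a lower mean level per length than Antp, 36.1% than Scr, 29.0% than pb, 24.1% than Dfd and 16.9% than lab. All 5 genes passed the expression filter. They rested on counts per library of 66 to 152 for lab, 150 to 204 for Dfd, 356 to 557 for pb, 771 to 2551 for Scr and 3933 to 6149 for Antp.

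**Figure D2:**
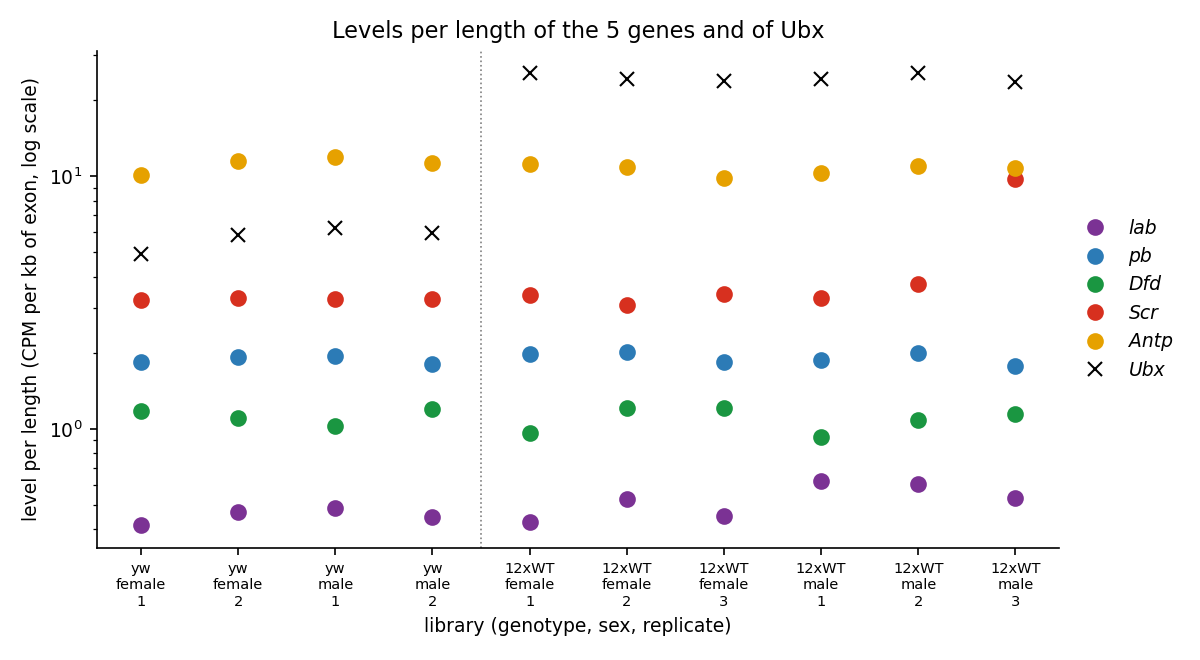
Level per length, in CPM per kb of exon on a log axis, of the 5 genes and of Ubx in each of the 10 libraries, ordered by genotype and sex. Antp lies highest of the 5 in every library and lab lowest, and Ubx lies below Antp in the 4 yw libraries and above it in the 6 12xWT libraries.

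The gene lab is the most anterior of the complex, and in the embryo it is needed for the identity of neurons in the tritocerebrum, a posterior part of the brain. The yw female libraries had 1.27 and 1.42 CPM, the yw male libraries 1.49 and 1.37 CPM, the 12xWT female libraries 1.30, 1.60 and 1.37 CPM and the 12xWT male libraries 1.90, 1.85 and 1.63 CPM. The 3 values of 12xWT males were above all other 7, the closest being 1.60 CPM in a 12xWT female library. The share of all genes that set these 3 libraries apart was not counted, so this is a description only. The group means were 1.35 ± 0.110 CPM (SD, n = 2) for yw females, 1.43 ± 0.0852 CPM (SD, n = 2) for yw males, 1.43 ± 0.158 CPM (SD, n = 3) for 12xWT females and 1.79 ± 0.146 CPM (SD, n = 3) for 12xWT males. With sex as covariate the log2 fold change of 12xWT over yw was 0.19 (SE 0.12, edgeR's quasi-likelihood test, Benjamini-Hochberg adjusted p = 0.253). In males alone it was 0.31 (SE 0.17, 95% interval -0.06 to 0.68, edgeR adjusted p = 0.218), and in females 0.06 (SE 0.17). Males exceeded females by 0.23 (SE 0.12, edgeR adjusted p = 0.563, and 0.0718 before adjustment). The coefficient of variation of lab over the 10 libraries was 14.5%, against 10.7% from counting alone.

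The gene pb acts with Scr in the labial segment, where it directs formation of the adult proboscis. The yw female libraries had 6.84 and 7.18 CPM, the yw male libraries 7.22 and 6.70 CPM, the 12xWT female libraries 7.39, 7.50 and 6.86 CPM and the 12xWT male libraries 6.97, 7.45 and 6.63 CPM, and values of all 4 groups overlapped. It was the steadiest of the 5, with a coefficient of variation of 4.47% where counting alone gives 4.94%. Its genotype log2 fold change was 0.0080 (SE 0.056, edgeR adjusted p = 0.925). The 95% interval ran from 0.924- to 1.09-fold.

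Dfd specifies the mandibular and maxillary segments of the head, and it is expressed in the subesophageal region of the nervous system. The yw female libraries had 3.21 and 3.01 CPM, the yw male libraries 2.80 and 3.28 CPM, the 12xWT female libraries 2.64, 3.31 and 3.30 CPM and the 12xWT male libraries 2.55, 2.97 and 3.15 CPM, again with overlap between all 4 groups. The mean was 3.08 ± 0.219 CPM (SD, n = 4) in yw and 2.99 ± 0.328 CPM (SD, n = 6) in 12xWT. The log2 fold change was -0.07 (SE 0.10, edgeR adjusted p = 0.657), with a 95% interval from 0.817- to 1.12-fold. Its coefficient of variation was 9.23%, against 7.56% from counting alone.

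Antp specifies the middle thoracic segment, and gain of Antp in the head turns antennae into legs. The yw female libraries had 75.6 and 86.4 CPM, the yw male libraries 89.1 and 84.3 CPM, the 12xWT female libraries 84.1, 81.3 and 73.8 CPM and the 12xWT male libraries 76.9, 82.4 and 81.0 CPM. Females of the genotypes overlapped, while the 3 values of 12xWT males lay below both values of yw males. In males 51.1% of all genes tested had no overlap in either direction. The mean was 83.9 ± 5.84 CPM (SD, n = 4) in yw and 79.9 ± 3.81 CPM (SD, n = 6) in 12xWT. The log2 fold change was -0.09 (SE 0.042, edgeR adjusted p = 0.121, and 0.0535 before adjustment), with a 95% interval from 0.880- to 1.001-fold. In males it was -0.13 (SE 0.060, edgeR adjusted p = 0.137, and 0.0463 before adjustment). A yw female library decided its side of the threshold: without replicate 1, at 75.6 CPM, the fold change was -0.14 and the edgeR adjusted p 0.0218.

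Scr specifies the labial and first thoracic segments, and it is required for the larval salivary gland and for the sex combs of the male foreleg. The yw female libraries had 14.82 and 15.03 CPM, the yw male libraries 14.95 and 14.97 CPM, the 12xWT female libraries 15.44, 14.13 and 15.60 CPM and the 12xWT male libraries 15.01, 17.12 and 44.61 CPM. The yw libraries had a mean of 14.9 ± 0.0871 CPM (SD, n = 4). The mean in 12xWT was 20.3 ± 11.9 CPM (SD, n = 6), and 15.5 ± 1.09 CPM (SD, n = 5) without 12xWT male replicate 3. That library was 2.89-fold over the median of the other 5 12xWT libraries. The coefficient of variation of Scr was 51.3% over the 10 libraries and 5.38% over the other 9.

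The genotype effect of Scr in both sexes together and in males rested on that library. The genotype log2 fold change was 0.37 (SE 0.34, edgeR adjusted p = 0.442) with it and 0.03 (SE 0.053, edgeR adjusted p = 0.668) without it. In males the values were 0.75 (SE 0.46, edgeR adjusted p = 0.304) and 0.09 (SE 0.080). In females, where it does not enter the means, the fold change was -0.01 (SE 0.46). That SE fell to 0.074 without the library, since all groups share a spread estimate. The 95% interval of the genotype effect, 0.749- to 2.22-fold, is correspondingly the widest of the 5.

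Against the other genes of the table, these counts read as follows. For the genotype effect, 0 of 5 anterior Hox genes were called, where edgeR at an adjusted p under 0.05 called 33.4% of the 11146 genes tested, 17% higher and 16.4% lower in 12xWT. In females 0 of 5 were called, against 12.6% of all genes, 7.04% higher and 5.57% lower. In males 0 of 5 were called, against 21% of all genes, 11.1% higher and 9.91% lower. The median absolute log2 fold change of the genotype effect over all genes was 0.12, and 3 of the 5 genes (pb, Dfd and Antp) lay under it. A fold change that misses the threshold does not show that a gene stayed the same, and the intervals above give the sizes that remain possible.

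Library ranges were compared as well. The ranges of yw and 12xWT overlapped for all 5 genes, and did not overlap for 24% of the genes tested. In females the ranges overlapped for all 5, where 42.7% of all genes had no overlap. In males 3 of 5 (lab, Scr and Antp) did not overlap, near the share of 51.1% of all genes tested. For Scr in males the gap was between 14.97 CPM in yw and 15.01 CPM in 12xWT.

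The genotype effects of the 5 genes were also compared between the sexes, as males minus females. The differences were 0.25 (SE 0.24) for lab, -0.03 (SE 0.12) for pb, -0.06 (SE 0.22) for Dfd, 0.76 (SE 0.65) for Scr and -0.09 (SE 0.085) for Antp on the log2 scale. None was called. For this difference edgeR called 0 genes of all tested, 0% in either direction, with 456 at an unadjusted p under 0.05, and DESeq2 called 11. The sex effect itself was called for 0 of 5, where edgeR called 1.68% of all genes, 0.637% higher and 1.04% lower in males. Ranges of the sexes overlapped for all 5 and did not overlap for 2.43% of genes.

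**Figure D3:**
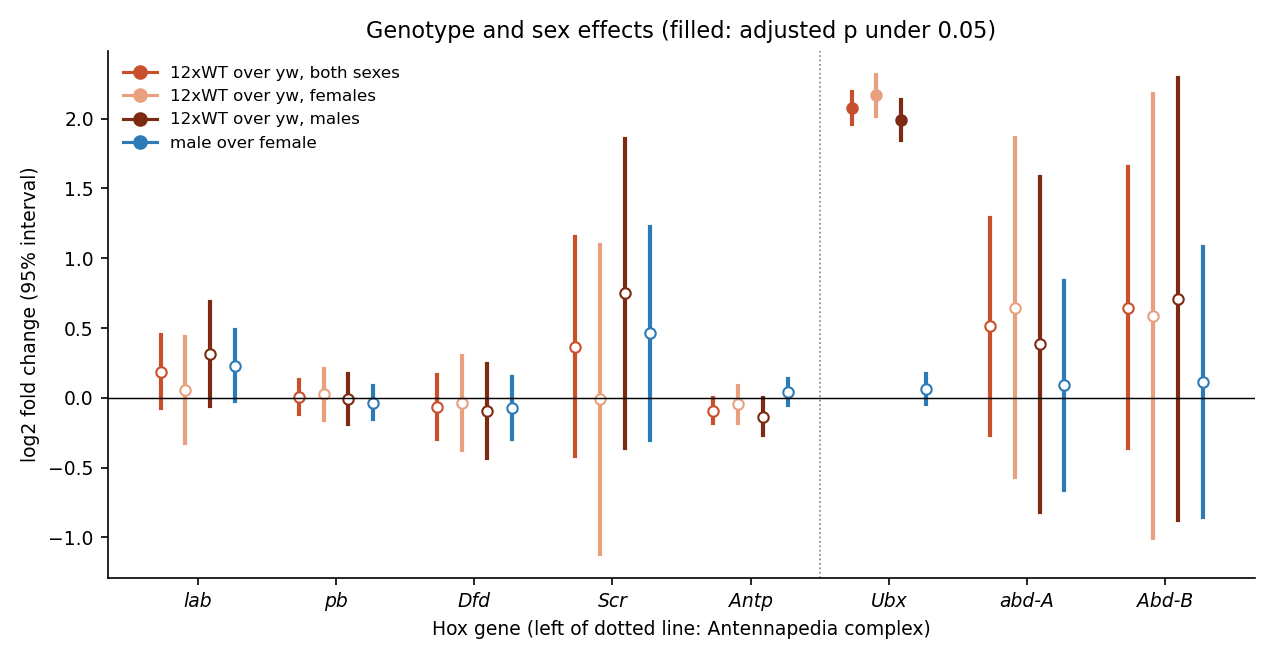
Log2 fold changes with 95% intervals of the genotype effect (both sexes, females, males) and of the sex effect (male over female) for the 5 genes and the 3 bithorax Hox genes; filled symbols have an edgeR adjusted p under 0.05. Filled symbols occur for Ubx alone, at 2.08, 2.17 and 1.99, and the wide intervals of Scr, abd-A and Abd-B contrast with those of pb and Antp.

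The authors' deposited table gives the comparison as yw over 12xWT, with the opposite sign. Its log2 fold changes were -0.20 for lab (SE 0.143, adjusted p = 0.290) and -0.42 for Scr (SE 0.282, adjusted p = 0.253) in the authors' deposited table, computed with DESeq2 per the submitters' processing notes. For Antp the authors' deposited table has 0.09 (SE 0.0742, DESeq2 adjusted p = 0.369), for Dfd 0.07 and for pb -0.0090. None of the 5 passes 0.05 there.

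The bithorax genes show what a Hox gene past the threshold looks like in these libraries. Ubx had 21.0 to 26.6 CPM in yw and 101.2 to 109.1 CPM in 12xWT, which is 2.08 higher on the log2 scale (SE 0.053, edgeR adjusted p = 1.77e-10). Per length Ubx stood at 0.511 ± 0.0190 (SD, n = 4) of Antp in yw and at 2.30 ± 0.0839 (SD, n = 6) of Antp in 12xWT, so the order of these neighbours in the body was exchanged between the genotypes. The mean log2 ratio of Ubx to Antp was higher in 12xWT by 2.17, to Dfd by 2.15, to pb by 2.07, to lab by 1.90 and to Scr by 1.80. In each case all 6 12xWT libraries lay above all 4 yw libraries. The 5 ratios share Ubx and restate its rise beside each gene, so no test is given for them.

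The abdominal genes abdominal-A (abd-A) and Abdominal-B (Abd-B) varied more between 12xWT libraries. Their log2 fold changes were 0.51 (SE 0.33, edgeR adjusted p = 0.277) and 0.65 (SE 0.43, edgeR adjusted p = 0.292). The level of abd-A was 35.2 to 47.0 CPM in yw and 37.7 to 50.5 CPM in 4 of the 12xWT libraries, but 102.3 CPM in 12xWT male replicate 3 and 88.9 CPM in 12xWT female replicate 1. Abd-B was at 24.9 and 19.4 CPM in those libraries, and at 6.51 to 9.66 CPM in the other 8. Scr was high in the first of them only, with 15.4 CPM in 12xWT female replicate 1. In the same 12xWT male library Antp, pb, Dfd and lab were each within the range of the other 9, except pb, which was lowest there at 6.63 CPM against 6.70 CPM.

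Markers of other tissues were measured in the library with high Scr. Imaginal disc cells, the precursors of adult legs and wings, express Scr in the prothoracic leg disc, so a list of 13 disc markers was set beside it. In 12xWT male replicate 3, 8 of the 13 were at their highest of the 10 libraries, where 15.5% of the genes tested had their highest level in that library and 13.1% in 12xWT female replicate 1. Wnt6, a signalling protein of discs, was at 4.35 CPM against at most 1.97 CPM elsewhere. The wing and leg signal wg was at 7.77 CPM against at most 4.91 CPM. The limb gene Dll was at 68.3 CPM against at most 51.8 CPM, and twi, a marker of disc muscle precursors, at 1.40 CPM against at most 0.845 CPM. The others at their highest there were nub, C15, dpp and Him. The rest of the list was not at its highest there: vg (16.6 CPM against a maximum of 20.3 CPM), rn (103.1 against 140.5 CPM), bab2, esg and sna. For the genotype effect 3 of the 13 were called higher in 12xWT and 3 lower, against 17% and 16.4% of all genes. Those higher were Wnt6 at 2.05 (SE 0.54, edgeR adjusted p = 0.0178), wg at 0.59 (SE 0.19) and twi at 2.11 (SE 0.42). The share of 15.5% does not take genotype into account, and these effects include 12xWT male replicate 3. The summed level of the list was 482.8 to 510.8 CPM in yw and 460.1 to 518.7 CPM in 12xWT, highest in that library, and no marker of the list was at 0 throughout. In that library bab2 and rn made up most of the sum, so it says little about the rest of the list. Fat body markers also summed highest there, at 507.9 CPM against 7.84 to 200.7 CPM in yw and 39.4 to 356.4 CPM in the other 12xWT libraries, and the larval cuticle markers, at 9.29 CPM, were exceeded by 12xWT female replicate 1 at 24.4 CPM. The salivary gland also requires Scr, and its 9 markers summed to 181.9 CPM in 12xWT male replicate 3, rank 4 of the 10 libraries. Of these 9, CrebA alone was at its highest (48.5 CPM against at most 40.9 CPM), and fkh was at its lowest (118.9 CPM). CrebA and fkh made up most of the sum, so its rank says little about the rest of the list. For the genotype effect 2 of the 9 were called higher in 12xWT and 0 lower, against 17% and 16.4% of all genes. They were sage at 1.03 (SE 0.11, edgeR adjusted p = 3.16e-05) and CrebA at 0.49 (SE 0.095, edgeR adjusted p = 0.00372). Neuroblast and neuron markers summed lowest in 12xWT male replicate 3, at 12385 and 3814 CPM. Of the neuroblast sum 11767 CPM were pros, so it says little about the rest of the list. In that library pros, dpn, mira, ase and insc were at their lowest, wor and klu were not, and grh was at its highest (93.0 CPM against at most 64.9 CPM). The part of these tissues in the Scr level was not tested.

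**Figure D4:**
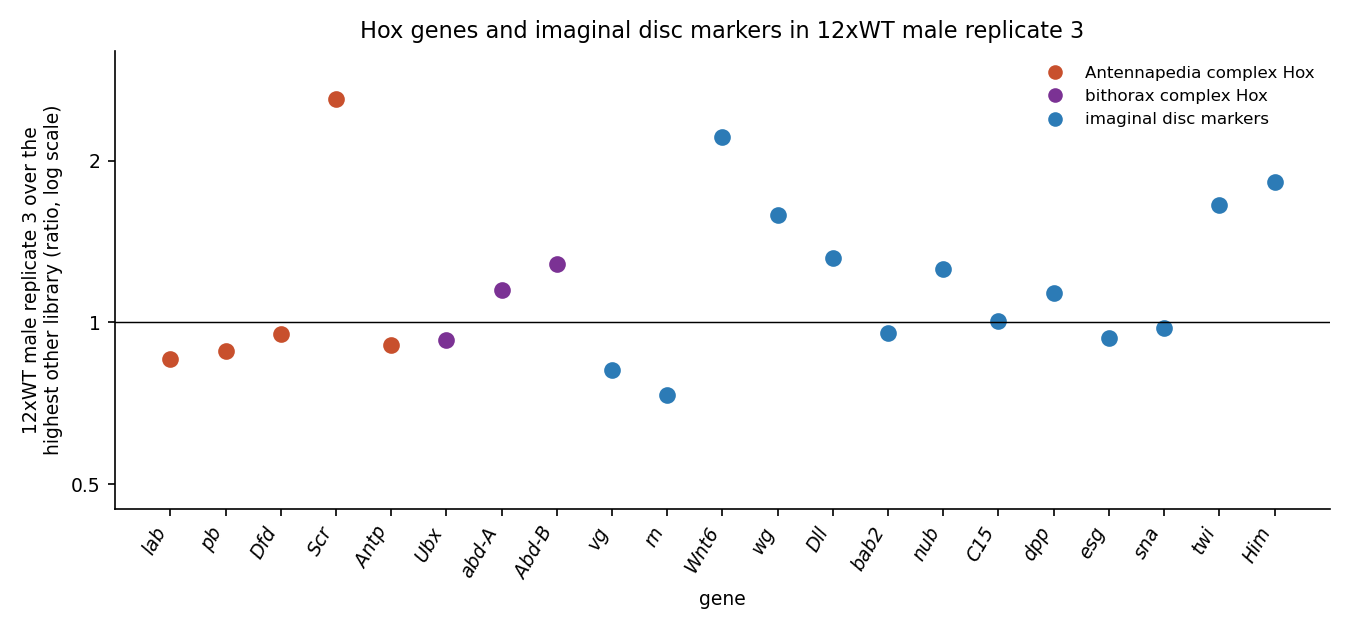
Level in 12xWT male replicate 3 divided by the highest level among the other 9 libraries, on a log axis, for the Hox genes of both complexes and the 13 imaginal disc markers. Scr lies highest at 2.61, followed by Wnt6 at 2.21, while lab, pb, Dfd, Antp and Ubx lie below 1.

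Genes with library profiles most like each member were found by the root mean square (RMS) difference of centred log2(CPM + 0.5) values over the 10 libraries, among 8694 genes. For Scr these were ems (0.132), a head and brain homeodomain gene, CG7896 (0.153) and CG10005 (0.156), against a spread of Scr itself of 0.461. All 3 had their highest level in 12xWT male replicate 3, at 12.7, 20.4 and 4.86 CPM, where the other 9 libraries reached 5.81, 8.42 and 2.32 CPM. Most of the spread of Scr comes from that library, so genes chosen for a like profile peak there by the choice itself. Their peak is therefore a description only. For Antp they were CG10376 (0.0298), CR30055 (0.0376) and ttm50 (0.0402). For pb they were mtRNApol (0.0277), CG5375 (0.0315) and CG8833 (0.0322), for Dfd the Notch ligand Dl (0.0816), nopo (0.0829) and CG13689 (0.0846), and for lab c(3)G (0.0602), csul (0.0751) and CG14142 (0.0765). The coefficient of variation of pb (4.47%) did not exceed that from counting alone (4.94%), so its closest genes match a profile within counting error. That of Dfd was little above it (9.23% against 7.56%). No member was among the closest genes of another. The own RMS spread of the other 4 members, 0.0572 for pb, 0.0815 for Antp, 0.111 for Dfd and 0.146 for lab, was far smaller than that of Scr.

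Of the other 28 genes between the outer ends of lab and Antp, a stretch of 337.8 kb, 13 had a maximum under 10 counts in a library, 4 of these with no count at all, and 13 were tested. Of the 13 tested genes 3 were higher in 12xWT and 0 lower, where 17% of all genes were higher and 16.4% lower. The noncoding gene pncr002:3R, between lab and pb, had 310.2 ± 10.01 CPM (SD, n = 4) in yw and 406.3 ± 23.9 CPM (SD, n = 6) in 12xWT, higher by 0.37 on the log2 scale (SE 0.035, edgeR adjusted p = 1.21e-05). Amalgam (Ama), an immunoglobulin-family cell adhesion protein of the nervous system, lies between pb and Dfd and rose by 0.28 on the log2 scale (SE 0.035, edgeR adjusted p = 0.000106), from 246.3 ± 6.67 CPM (SD, n = 4) to 304.6 ± 14.3 CPM (SD, n = 6). The body of Ama overlaps that of CR45593 on the opposite strand, and counting without strand cannot assign reads from the overlap; CR45593 itself was listed at 2.702 ± 0.203 CPM (SD, n = 4) in yw and 2.76 ± 0.339 CPM (SD, n = 6) in 12xWT. The cuticle protein gene Ccp84Aa rose from 0.407 ± 0.110 CPM (SD, n = 4) to 1.03 ± 0.267 CPM (SD, n = 6), by 1.32 on the log2 scale (SE 0.25, edgeR adjusted p = 0.00228). The early embryonic genes of the complex, bcd, zen and zen2, had at most 6 counts in any library and ftz at most 14. Between Scr and Antp, the noncoding gene CR45559 was at 1.47 CPM in 12xWT male replicate 3, against at most 0.457 CPM elsewhere, the same library in which Scr was high.

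**Figure D5:**
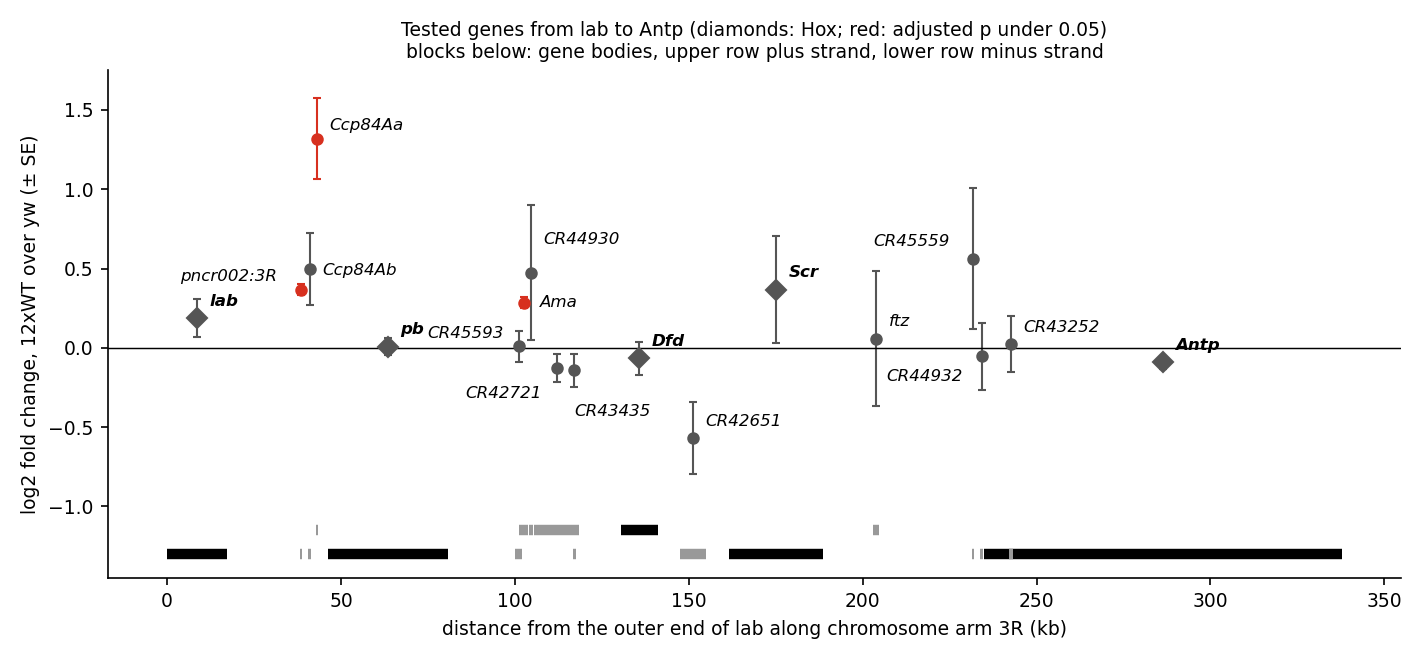
Log2 fold changes of 12xWT over yw with SE for the 5 Hox genes and the 13 other tested genes from lab to Antp, by distance in kb from the outer end of lab; diamonds are the Hox genes, red marks an edgeR adjusted p under 0.05, and blocks below show gene bodies by strand. The 3 called genes (pncr002:3R, Ccp84Aa, Ama) lie on either side of pb, whose own fold change is 0.0080.

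The proteins that work with Hox proteins or on Hox genes were taken as lists. Of 7 Hox cofactors and partners 0 were called, against 33.4% of all genes, with a median log2 fold change of 0.05, against a median of 0.00047 over all genes. They included the homeodomain cofactors exd (463.9 ± 10.7 CPM, SD, n = 4, in yw and 461.6 ± 8.37 CPM, SD, n = 6, in 12xWT) and hth (716.0 ± 20.1 and 713.0 ± 29.3 CPM). The trunk gene tsh reached 122.8 CPM in 12xWT male replicate 3 and no more than 110.4 CPM in any other library. Of 8 homeodomain genes that pattern brain regions, 2 fell, scro by 0.11 on the log2 scale (SE 0.035, edgeR adjusted p = 0.0280) and ey by 0.11 (SE 0.038, edgeR adjusted p = 0.0380), and 0 rose, against 16.4% of all genes lower and 17% higher.

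Changes among Polycomb group genes were small. Of 22, 10 fell and 1 rose in 12xWT, with a median log2 fold change of -0.08, where 16.4% of all genes tested were lower and 17% higher; the difference of these shares was not tested. The lowest p-values belonged to Asx, a subunit of the Polycomb deubiquitinase, at -0.22 (SE 0.029, edgeR adjusted p = 0.000177), Sfmbt at -0.12 (SE 0.023) and ph-d at -0.09 (SE 0.023). The riser, named after its value was seen, was the histone demethylase Kdm2 at 0.09 (SE 0.023, edgeR adjusted p = 0.00998). Of 20 Trithorax group genes found of 21 listed, 5 fell and 0 rose, against 16.4% of all genes lower and 17% higher. Their median was -0.05, led by wds at -0.17 (SE 0.028, edgeR adjusted p = 0.000663). Among cell type markers, 5 of 7 for neurons were lower, with a median of -0.24, 5 of 8 for neuroblasts, with a median of -0.15, and 5 of 8 for glia, with a median of -0.18 and 1 higher, against 16.4% of all genes lower. Of 8 ring gland markers tested 6 rose, against 17% of all genes. Their part in the list counts was not tested.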

How the data were processed

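RNA was extracted from 25 brains per library and polyA-selected with a stranded kit, per the labels' protocols. The authors deposited counts made by featureCounts of Subread 2.0.1 in paired mode, with exons grouped by gene and no strand option, per the file headers, on dm6. STAR 2.7.7a and DESeq2 1.34.0 are named in the submitters' processing notes. The authors also deposited a comparison table with mean normalized counts (a signal value), log2 fold changes with standard errors, p-values and adjusted p-values, computed as yw over 12xWT per the file headers; its design and filters are not given in the sources used here. Counting without strand cannot tell a gene from an antisense partner, but no member has an exon overlapping another gene's. The date-like names of 5 genes were left as deposited, and 0 count columns were unmatched.

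Group, sex and replicate came from the sample titles. Counts were analysed with edgeR 4.0.16 in R 4.3.3 (TMM factors 0.985 to 1.02, robust quasi-likelihood test, common coefficient of biological variation 8.76%), on the 11146 genes that passed filterByExpr over the 4 groups, with Benjamini-Hochberg adjustment over them at 0.05. The genotype effect had sex as covariate, and the effects within each sex and their difference were contrasts of the 4 group means. CPM is the count over the library total. Standard errors are the absolute log2 fold change over the square root of the F statistic. DESeq2 1.42.0 and the other alternatives are given in the closing section. Python 3.11.15, pandas 2.3.3 and numpy 2.4.6 served for the descriptions, and matplotlib 3.10.9 for the figures. Genes named were all members, listed genes, genes of the stretch and the 3 closest profiles per member among genes with a mean of at least 1 CPM. From lists of over 8, at most 3 of the lowest p were named, with exceptions. Imaginal disc and salivary gland markers were named for their level in the library with high Scr, their call or their part in the sum. Kdm2 was named after its value was seen. The members and lists were chosen with earlier results of these data known. No sequence is printed.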

Additional observations from a re-analysis of the deposited data

Results flagged for a closer look

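Among the 6 12xWT libraries the level of Scr had an isolated highest value, 44.61 CPM in 12xWT male replicate 3. Its gap to the nearest library, at 17.12 CPM, was 0.902 of the whole range, which began at 14.13 CPM, above Dixon's critical value of 0.625 for 6 samples. It was the 1 flagged group of 10 examined (each of the 5 genes in yw and in 12xWT), where chance flags about 1 in 20 groups. The same library had the highest abd-A (102.3 CPM) and Abd-B (24.9 CPM) levels and 8 of 13 imaginal disc markers at their highest. The part of these in the Scr level was not tested.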

How the results depend on the processing

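The 25 member results (5 genes in 5 tests) were recomputed in 16 settings, which gave 400 values: 374 kept direction and call, 25 changed sign while uncalled, and 1 became called. That was Antp for the genotype effect without yw female replicate 1, and leaving out 1 library in turn gave -0.14 to -0.067. Over those settings the genotype effect of pb ran from -0.0093 to 0.032 and that of Dfd from -0.10 to -0.012. In females lab ran from -0.031 to 0.14, pb from -0.0038 to 0.054, Dfd from -0.095 to 0.074, Scr from -0.048 to 0.035 and Antp from -0.14 to 0.047. In males pb ran from -0.061 to 0.043 and Dfd from -0.21 to 0.026. The difference between the sexes ran from -0.085 to 0.018 for pb and from -0.18 to 0.060 for Dfd, or -0.23 without both libraries named below, and from -0.18 to -6.6e-06 for Antp. Counts of called genes ran from 698 to 1482 in females (1406 with all libraries), 958 to 2406 in males (2338), 0 to 3 for the difference between the sexes (0) and 44 to 197 for the sex effect (187). The lowest counts in females, males and for sex came without yw female replicate 1, yw male replicate 2 and yw male replicate 1.

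With library size only, Scr in females turned to 0.012 and pb in males to 0.011, and the genotype effect had 2112 genes higher and 1338 lower in place of 1890 and 1832, a share of 61.2% higher in place of 50.8%. An alternative chosen after seeing the data, without both 12xWT male replicate 3 and 12xWT female replicate 1, turned Dfd in females to 0.075, pb in males to 0.035 and the difference for pb to 0.014. DESeq2 called 11 genes for the difference between the sexes and 325 for the sex effect, and no filter on low counts gave 3 for the difference. TMM-scaled CPM moved Scr in yw to 15.08 CPM. Same-numbered libraries of different groups did not deviate together (correlations -0.17 to 0.10, 1 of 13 pairs over 0.1), so the numbers were not taken as pairs. With the replicate number as a block, called genes numbered 1527 in males (848 higher, 679 lower), 92 for sex and 2577 for the genotype effect, no member was called, and pb in males was 0.026. The block moved Scr from 0.37 to 0.013 for the genotype effect, from 0.75 to 0.32 in males and from -0.011 to -0.27 in females, and Dfd from -0.066 to -0.13 for the genotype effect. Causes were not tested. With 66 to 152 counts per library, lab is the member that depth limits most.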

Other observations

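Per length, Scr stood at 0.293 ± 0.0200 (SD, n = 4) of Antp in yw libraries and between 0.285 and 0.904 of it in 12xWT libraries, with a median of 0.330. The ratio of Antp to lab was 24.2 to 25.0 in the 4 yw libraries and 16.4 to 26.2 in the 6 12xWT libraries. The summed transcripts of 8 Y-linked genes were 0 to 0.0356 CPM in yw females and 0.105 to 0.260 CPM in yw males. In 12xWT they were 4.39 to 17.9 CPM in females and 19.8 to 22.8 CPM in males.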
